A study of Rattus norvegicus with 8 samples.

Results

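The baseline transcriptome of wild-type rat hippocampal neuronal cultures was described from the 4 libraries labelled vehicle, out of 8 libraries in the series. The cultures came from SD rats, were 18 days in vitro and had been given vehicle only. The other 4 libraries belong to cultures treated with an NMDA receptor positive allosteric modulator, and they entered no value or comparison here. The members were chosen by their label alone. Nothing in the labels says that the 4 libraries are separate cultures, so the SD over them may be technical, and the sources used here state neither what the vehicle was nor how long it was applied. Polyadenylated RNA was sequenced, and each gene's level is given in TPM, its count divided by the exonic length in the deposited tables and scaled so that all genes of a library sum to 1000000. A gene was taken as expressed at 1 TPM or more in all 4 libraries.

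Dissociated hippocampal cultures hold glutamatergic pyramidal and granule neurons, a minority of GABAergic interneurons that inhibit them, and astrocytes that divide and spread under the neurons. By the third week in culture such neurons have axons, dendrites with spines, working synapses and spontaneous firing. Many synaptic proteins are made by families of related genes whose members differ in channel kinetics, calcium sensitivity or binding partners, so the member that dominates a family describes the state of the cells. In a bulk library, fewer cells of a type and less RNA per cell cannot be told apart.

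Total gene counts ranged from 3175404 to 3679249. For a gene with no counts, 3 counts of the total set an upper limit of 0.815 to 0.945 CPM (counts per 1000000), which covers counting error only. The annotation lists 32623 genes, of which 17614 were detected in 1 library or more and 11708 were expressed. Of the expressed genes 11129 (95.1%) carried a symbol. The libraries correlated at Pearson's r = 0.971 to 0.981 over the 11708 expressed genes, on log2(TPM + 1). These are correlations across genes, which are not independent replicates, and the 3 lowest all involved vehicle 1. The pan-neuronal and telencephalic markers given below were present in every library. The endothelial and hindbrain markers that carry a symbol, 3 of 10 and 2 of 11 listed genes, were near 0. The rest of those 2 lists was not analysed.

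The median expressed gene stood at 17.6 TPM. A mean of at least 10 TPM was reached by 7655 genes, of at least 100 TPM by 1495 genes and of at least 1000 TPM by 110 genes. The 10 most abundant nuclear genes held 8.01% to 8.57% of the nuclear TPM of a library, the top 100 held 25.8% to 26.6% and the top 1000 held 62.2% to 63.5%. Cytosolic ribosomal protein genes held 5.43% to 6.06% of all TPM. The mitochondrial chromosome alone held 20.5% to 22.7% of TPM and 12.5% to 14.1% of counts.

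Of the 13 protein-coding genes of the mitochondrial genome, which encode core subunits of the respiratory chain and ATP synthase, 7 took the first 7 ranks of the transcriptome and the other 6 ranked from 13 to 271. COX1, the catalytic subunit of cytochrome c oxidase, stood at 34180, 38664, 35439 and 39353 TPM in vehicle 1 to 4. ATP6 (31559 ± 1343 TPM, SD, n = 4), COX3 (30747 ± 1343 TPM) and COX2 (25153 ± 1349 TPM) followed, and the difference between ATP6 and COX3 was smaller than their SD. The complex I genes ranged from 16875 ± 1565 TPM for ND2 to 490 ± 65.4 TPM for ND4. ND4 and ND4L (1921 ± 272 TPM) lie on the same strand and share only positions 10160 to 10166. ATP8 and ATP6, also on the same strand, share positions 7919 to 7961. ND6 lies on the opposite strand to ND5, and their annotated genes share only positions 13543 to 13565. The sources used here do not say whether counting used strand, so the values of ND5 and ND6 are uncertain. Strand does not bear on the overlaps of the same-strand pairs.

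The most abundant nuclear genes with a symbol joined energy metabolism, secreted glial proteins and small actin-binding proteins. Gapdh (chr4:157676595-157679962, Rnor_6.0), the glycolytic glyceraldehyde-3-phosphate dehydrogenase, stood at 9115, 10396, 9537 and 9823 TPM. Cst3, the secreted protease inhibitor cystatin C, which glia release in large amounts, stood at 8715, 9839, 10443 and 9585 TPM. Nnat, the imprinted gene of the small membrane protein neuronatin, stood at 9101, 9804, 9967 and 9237 TPM. The ranges of these 3 genes overlapped, so their order is not resolved. Tmsb4x, encoding the actin-sequestering thymosin beta-4, was the next at 7926 to 8419 TPM, below every value of the other 3. Apoe, the main lipid carrier made by astrocytes, stood at 4185, 4205, 4701 and 3954 TPM.

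Glycolytic enzymes supplied 4 of the 30 highest nuclear genes. Besides Gapdh these were Aldoa (3719 ± 205 TPM), Eno1 (2828 ± 109 TPM) and Ldha (2575 ± 109 TPM). Ckb, the brain creatine kinase that buffers ATP, stood at 2539 ± 130 TPM. Protein turnover was represented by the polyubiquitin gene Ubb (3871 ± 248 TPM) and by the neuronal deubiquitinase Uchl1 (2172 ± 85.3 TPM). Ribosomal and translation genes among the 30 were Rps2, Rpl41, Rplp1, Rpl21, Eef1a1 and Tpt1, at 2064 to 3186 TPM. The metal-binding proteins Mt3 (2324 ± 250 TPM), a brain metallothionein, and Ftl1 (2062 ± 99.3 TPM), the ferritin light chain, were also among them. Cytoskeletal genes were Tuba1a (2738 ± 264 TPM), Cfl1 (2395 ± 18.5 TPM), which severs actin filaments, and Actb (2069 ± 101 TPM). The other members were Mif (3805 ± 136 TPM), a cytokine-like protein, Atp6v0c (2424 ± 136 TPM), the proton channel subunit of the vacuolar ATPase, Calm3 (2199 ± 56.1 TPM), Ppia (2147 ± 24.5 TPM), Zwint (2072 ± 103 TPM), Ptms (1956 ± 202 TPM), Cox6a1 (1932 ± 193 TPM) and Fabp5 (1922 ± 87.6 TPM). Many of these genes have near-identical copies, and how reads that map to several places were treated is not given, so their levels are uncertain.

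**Figure D1:**
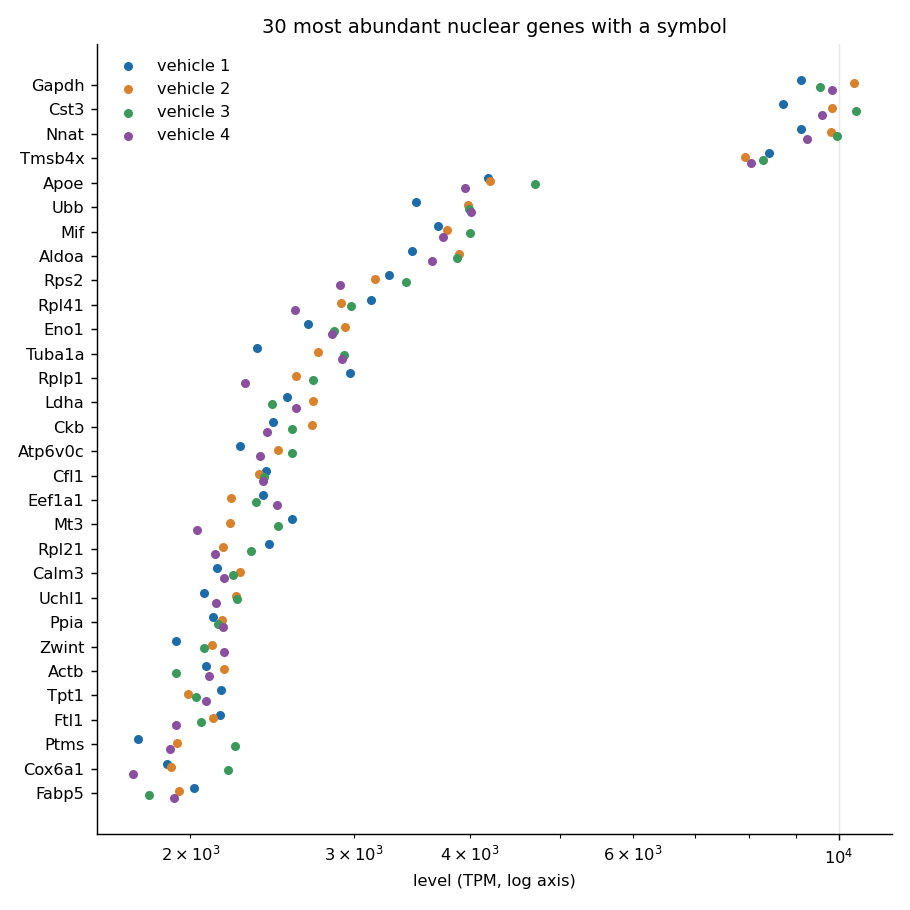
Level (TPM, log axis) of the 30 most abundant nuclear genes that carry a symbol, with 1 point per vehicle library. Gapdh, Cst3 and Nnat overlap between 8715 and 10443 TPM, and the points of the 4 libraries lie close together for every gene.

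Gene families were described by the share of the family's summed TPM that each member held. Of 79 families with at least 2 members that carry a symbol, 61 had a leading member with over 50% of the family level, 23 had one with over 80%, and 10 had none with 40%. The median share of the leading member was 64.8%. In 56 families the leader held over 50% in every library, and in 74 families the same gene led in all 4 libraries. Of the 326 family members with a symbol, 282 were expressed. Of all 13739 genes with a symbol 11129 were expressed, so most such genes were expressed whatever their family. Symbols came only from the authors' test results, and carrying one went with being expressed. Of all 32623 annotated genes 11708 were expressed. The share among genes with a symbol is therefore not that of the annotation. Some members of 27 families carry no symbol in the deposited files and were not analysed here. Among the 52 families with every member present, 40 had a leader over 50% and 13 a leader over 80%. Because TPM divides by annotated length, the leader depends on that length: in raw counts 71 of the 79 families had the same leading gene and 8 had another.

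**Figure D2:**
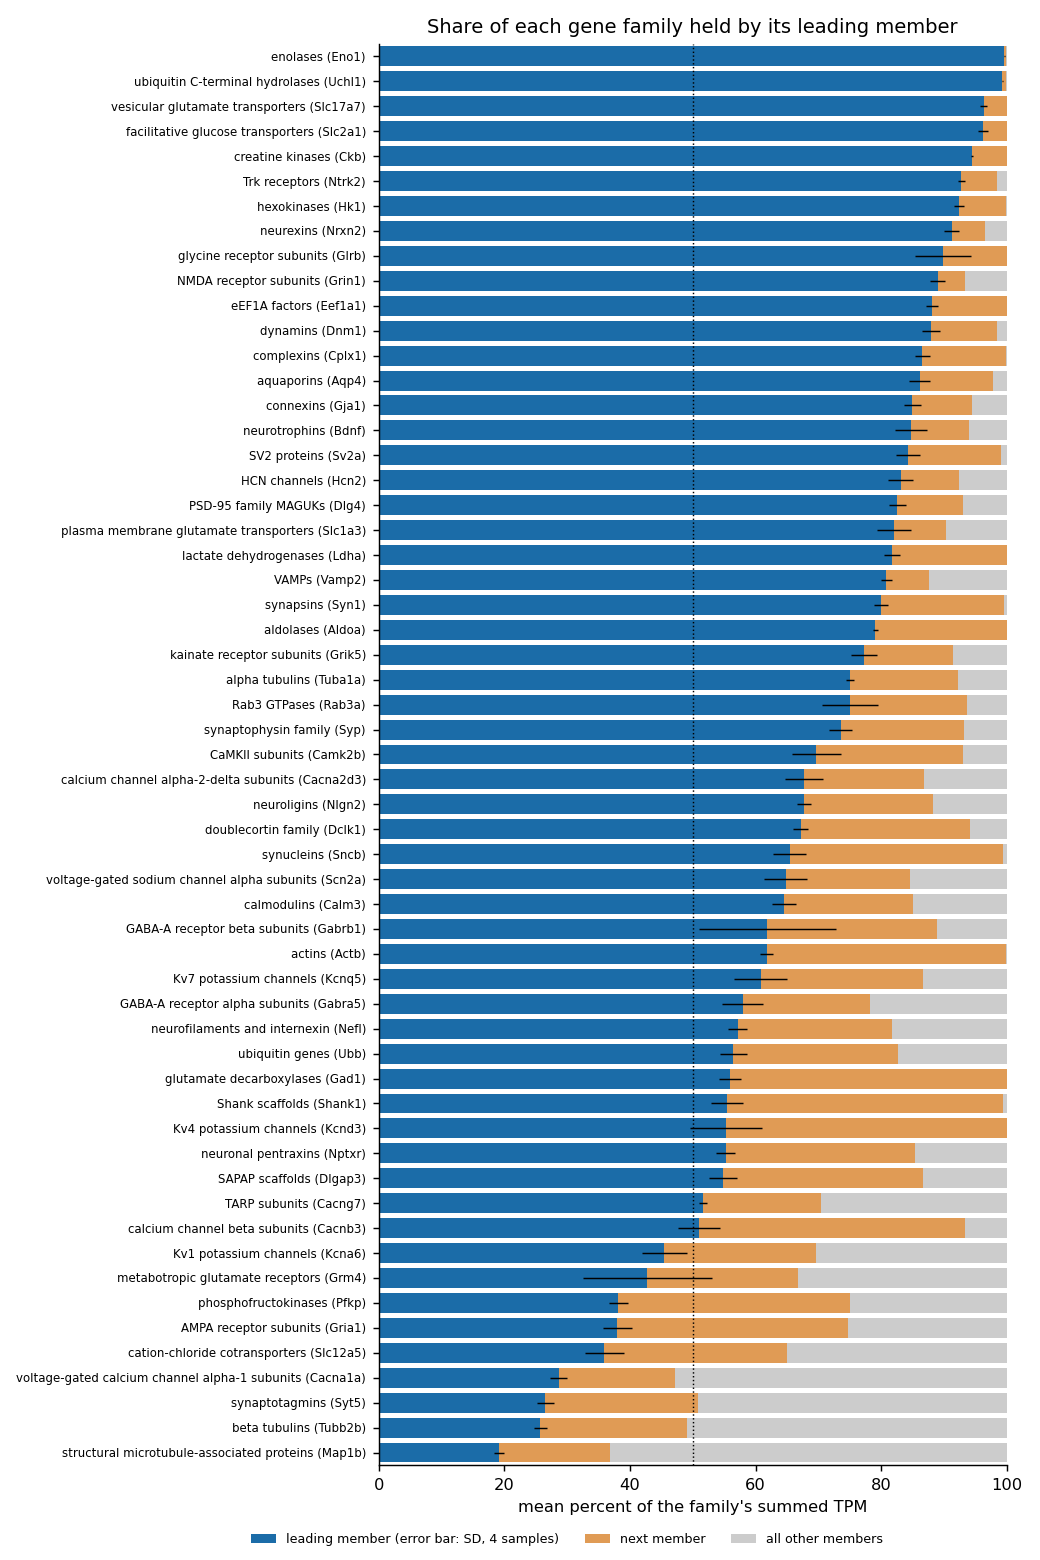
Mean percent of each family's summed TPM held by the leading member (named in brackets, error bar SD over 4 libraries), the next member and all others, for the 57 families whose leading member the text names; the dotted line marks 50%. In 48 of them the bar of the leading member ends past the line, and the bars run from Eno1 at 99.6% down to Map1b at 19.1%, and members without a symbol are not included.

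The NMDA receptor, a glutamate-gated channel that admits calcium when the membrane is depolarised, needs the obligatory subunit GluN1 from Grin1 and regulatory GluN2 or GluN3 subunits. Grin1 stood at 212, 239, 223 and 226 TPM in vehicle 1 to 4 and held 89.0% ± 1.22 of the family. The regulatory subunits were all far lower. Grin2d, encoding GluN2D, stood at 9.71, 13.9, 9.47 and 10.4 TPM, and Grin2b, encoding GluN2B, at 6.47, 4.78, 12.2 and 8.17 TPM. These overlapped in range, and Grin2c stood at 3.96, 5.75, 6.46 and 5.39 TPM. Grin2a, the GluN2A subunit that increases as hippocampal neurons mature, was at 0.342, 1.93, 1.35 and 2.32 TPM and missed the expression limit in vehicle 1. Grin3a (1.21 ± 0.332 TPM) and Grin3b (1.07 ± 0.437 TPM) also missed it in at least 1 library. Of the exonic bases of Grin1, 20.5% overlap a gene on the opposite strand that had no counts.

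AMPA receptors carry the fast excitatory current, and GluA2 from Gria2 makes them impermeable to calcium. Gria1 stood at 38.5, 34.8, 39.1 and 40.2 TPM and Gria2 at 41.6, 31.5, 37.6 and 37.7 TPM. Gria1 was the higher in 3 libraries and Gria2 in vehicle 1, so neither led beyond the spread (38.0% ± 2.29 and 36.8% of the family). In raw counts Gria2 held 50.4% and Gria1 22.6%, since the annotated exons of Gria2 span 6854 bases and those of Gria1 2976 bases. Gria4 (15.4 ± 2.40 TPM) and Gria3 (10.1 ± 2.40 TPM) were lower than both in every library. The family summed to 101 ± 10.1 TPM, below the NMDA family at 253 ± 13.9 TPM in this per-length measure.

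Among kainate receptor subunits, Grik5, which encodes an auxiliary subunit that binds glutamate with high affinity but does not form channels alone, stood at 134, 126, 127 and 121 TPM and held 77.2% ± 2.05. Grik4, a subunit concentrated in CA3 pyramidal cells, followed at 23.7, 25.1, 23.4 and 21.0 TPM. The channel-forming subunits Grik2 (9.45 ± 2.24 TPM) and Grik1 (3.55 ± 1.76 TPM) were lower, and Grik3 missed the expression limit. Only 3 of 8 metabotropic glutamate receptors were expressed. These were Grm4 (7.43, 12.1, 12.5 and 13.2 TPM), a presynaptic receptor coupled to inhibitory G proteins, Grm7 (6.38 ± 0.995 TPM) of the same group, and Grm5 (4.08 ± 1.83 TPM), which couples to phospholipase C. Grm4 was above Grm7 in every library, narrowly so in vehicle 1, where Grm7 stood at 7.17 TPM. Of the transmembrane AMPA receptor regulatory proteins, which traffic and slow AMPA receptors, Cacng7 led at 232 ± 20.6 TPM (51.6% ± 0.710). It was followed by Cacng4 (84.0 ± 7.01 TPM) and Cacng8 (81.8 ± 15.5 TPM), the hippocampal member, which did not differ beyond their SD. Cacng2, encoding stargazin, was at 9.0 ± 0.898 TPM.

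**Figure D3:**
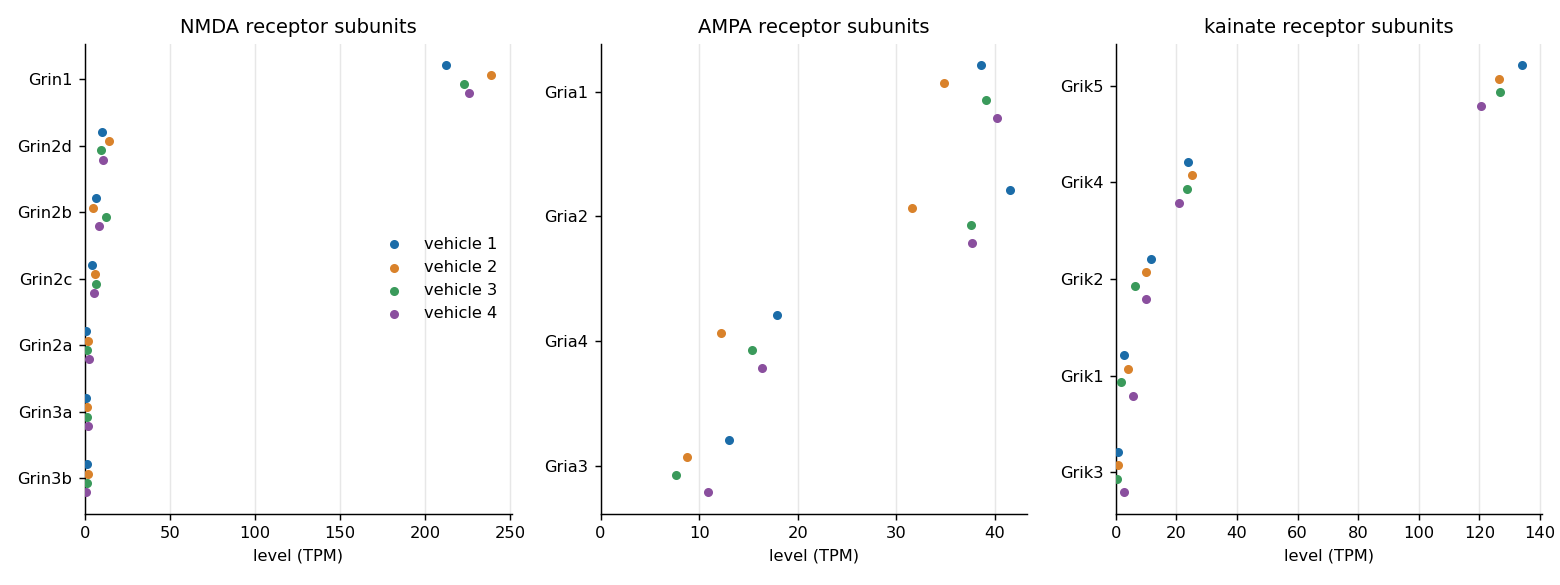
Level (TPM, axes from 0) of each NMDA, AMPA and kainate receptor subunit gene in the 4 vehicle libraries, 1 point per library. Grin1 and Grik5 lie apart from the rest of their families in every library, while Gria1 and Gria2 overlap.

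GABA-A receptors are chloride channels assembled from alpha, beta and gamma or delta subunits. Gabra5, whose receptors sit outside synapses in hippocampal pyramidal cells and give a tonic current, led the alpha subunits at 73.1, 77.3, 76.8 and 93.1 TPM (57.9% ± 3.19). Gabra2 (14.5 ± 4.32 TPM), Gabra4 (9.92 ± 1.35 TPM) and Gabra3 (5.87 ± 1.77 TPM) were below it in every library, and the cerebellar granule cell subunit Gabra6 was at 0 in 3 libraries. Gabrb1 led the beta subunits (16.8 ± 4.57 TPM, 61.9% ± 10.9), and Gabrb2 was under the expression limit in vehicle 4. The extrasynaptic Gabrd stood at 5.96, 8.70, 9.88 and 11.0 TPM. Glrb, the beta subunit of the glycine receptor, was at 30.6 ± 3.02 TPM.

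Ion channel families differed in how strongly 1 member led. The pacemaker channel family was held by Hcn2 at 125 ± 14.3 TPM (83.1% ± 2.06). The pore-forming sodium channel genes were low, with Scn2a at 16.5 ± 1.16 TPM (64.8% ± 3.39), Scn8a at 5.03 ± 1.32 TPM and Scn3a at 2.98 ± 0.60 TPM, while Scn1a missed the expression limit. Voltage-gated calcium channels had no dominant pore subunit: Cacna1a of P/Q-type channels stood at 22.0 ± 1.80 TPM (28.6% ± 1.38), followed by the T-type Cacna1h (14.2 ± 1.01 TPM) and Cacna1g (13.8 ± 1.10 TPM) and the N-type Cacna1b (11.6 ± 1.52 TPM). The beta subunits Cacnb3 (109 ± 6.58 TPM) and Cacnb1 (90.1 ± 7.03 TPM) held most of their family, in raw counts with Cacnb1 ahead (49.9% against 44.3%). Cacna2d3 led the alpha-2-delta subunits at 29.6 ± 1.18 TPM (67.7% ± 2.97).

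Potassium channels were spread over many members. Kcna6 led the Kv1 channels at 19.1 ± 2.31 TPM (45.5% ± 3.62). Kcnq5 led the M-current family at 15.7 ± 2.27 TPM. Kcnd3 and Kcnd1 of the Kv4 group did not separate in TPM (7.89 ± 0.395 and 6.48 ± 1.44 TPM, Kcnd3 ahead in 3 of 4 libraries). In raw counts Kcnd3 was ahead in every library, with 107 to 121 counts against 39 to 73. Kcnd2, the other listed Kv4 gene, carries no symbol and was not analysed, so the leader of the group is not known. The chloride exporter gene Slc12a5 (KCC2), whose rise makes GABA inhibitory in maturing neurons, stood at 17.6 ± 3.16 TPM (36.0% ± 3.11). It was above the importer gene Slc12a2 (NKCC1) at 7.23 ± 0.941 TPM, with the broadly expressed Slc12a4 between them at 14.1 ± 2.31 TPM.

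Transmitter transporters showed some of the most one-sided families. The vesicular glutamate transporter Slc17a7 (VGLUT1), typical of cortex and hippocampus, stood at 562, 591, 607 and 629 TPM and held 96.3% ± 0.559. Slc17a6 (VGLUT2), typical of subcortical and immature neurons, was at 22.8 ± 3.33 TPM. Of the plasma membrane glutamate transporters, Slc1a3 (GLAST) held 82.1% ± 2.72 at 382, 411, 334 and 392 TPM. Slc1a2 (GLT-1), the main transporter of mature astrocytes, was at 36.9, 27.0, 45.6 and 39.2 TPM, which overlapped with the neuronal Slc1a1 (38.3 ± 1.30 TPM). In raw counts these 2 genes did not overlap, with 55 to 84 counts per library for Slc1a2 and 285 to 345 for Slc1a1. Their overlap in TPM therefore depends on the annotated lengths. The astrocytic GABA transporter Slc6a11 (GAT-3) stood at 15.6 ± 2.51 TPM. The glutamate decarboxylases Gad1 (147 ± 10.8 TPM) and Gad2 (116 ± 4.66 TPM) were closer, and in raw counts Gad2 was ahead with 53.2%.

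Presynaptic families ranged widely in level, and several had a clear leader. The synaptotagmins summed to 1258 ± 37.0 TPM, whereas the Munc13 proteins, which prime vesicles for release, summed to 22.4 ± 1.67 TPM. Among vesicle proteins Vamp2, the synaptic v-SNARE, stood at 1221 ± 67.5 TPM (80.8% ± 0.881), Syp, encoding synaptophysin, at 880 ± 46.0 TPM (73.5% ± 1.85), Syn1, which tethers vesicles to actin, at 379 ± 37.1 TPM (79.96% ± 1.14) and Sv2a at 160 ± 5.02 TPM (84.2% ± 1.91). The fusion clamp gene Cplx1 stood at 445 ± 29.6 TPM and Cplx2 at 68.6 ± 3.26 TPM, a share of 86.5% ± 1.19 for Cplx1. Synaptotagmins, a family that includes the calcium sensors of release, had no dominant member. Syt5 (334 ± 26.3 TPM), Syt11 (305 ± 19.1 TPM), Syt1 (265 ± 15.6 TPM) and Syt4 (184 ± 8.01 TPM) held 26.6%, 24.3%, 21.1% and 14.6%. In raw counts Syt11 led with 29.7%. Dnm1, which pinches off recycled vesicles, held 87.9% ± 1.46 of the dynamins at 436 ± 29.3 TPM. Sncb led the synucleins at 1469 ± 132 TPM (65.4% ± 2.59). Rab3a (240 ± 33.6 TPM) led the Rab3 proteins, but 57.9% of its exonic bases overlap a gene on the opposite strand that had counts.

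Postsynaptic scaffolds were led by Dlg4, encoding PSD-95, at 292 ± 27.8 TPM (82.6% ± 1.33). Dlgap3 (156 ± 12.8 TPM) and Dlgap4 (90.3 ± 2.56 TPM) were the main scaffolds that link PSD-95 to Shank proteins, of which Shank1 (45.7 ± 5.44 TPM) and Shank3 (36.1 ± 2.53 TPM) were present and Shank2 was not expressed. Camk2b, the beta subunit of the calcium/calmodulin kinase that drives potentiation, stood at 258 ± 10.7 TPM (69.7% ± 3.92). Camk2a, the alpha subunit that predominates in adult forebrain, stood at 73.5, 73.5, 91.7 and 110 TPM, below Camk2b in every library. Of the adhesion proteins that join the synapse, Nrxn2 held 91.2% ± 1.18 of the neurexins at 148 ± 3.60 TPM, and Nrxn3 stood at 5.67 ± 0.677 TPM. Nlgn2, the neuroligin of inhibitory synapses, led its family at 104 ± 3.43 TPM (67.7% ± 1.14). The AMPA receptor clustering pentraxins were Nptxr (345 ± 18.1 TPM), Nptx2 (189 ± 23.3 TPM) and Nptx1 (91.0 ± 6.61 TPM).

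Cytoskeletal families contrasted with each other. Tuba1a, the alpha tubulin of growing neurons, held 75.2%, 75.4%, 75.5% and 74.2% of the alpha tubulins. The beta tubulins were shared between Tubb2b (936 ± 41.3 TPM), Tubb5 (851 ± 83.3 TPM), the neuronal Tubb3 (587 ± 69.5 TPM), Tubb4b (528 ± 34.2 TPM) and Tubb4a (485 ± 63.9 TPM). Tubb2b and Tubb5 differed by about their SD, and in raw counts Tubb5 was ahead. The 2 tubulin classes summed to nearly the same level, 3649 ± 360 TPM for alpha and 3646 ± 289 TPM for beta. Actb held 61.8% ± 1.07 and Actg1 38.1% ± 1.06 of the actins. Nefl (307 ± 13.4 TPM) exceeded Nefm (132 ± 9.79 TPM), Ina (77.9 ± 9.15 TPM) and Nefh (15.3 ± 0.736 TPM), the neurofilament of late axon maturation. Among structural microtubule-associated proteins no gene held more than 20%: Map1b was at 99.5 ± 4.47 TPM, Map2 at 91.7 ± 5.29 TPM, Map4 at 81.3 ± 0.863 TPM and Mapt at 78.6 ± 4.40 TPM. Dcx, a marker of migrating neurons, stood at 8.67 ± 0.611 TPM, below Dclk1 at 106 ± 3.18 TPM.

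Metabolic and signalling families were among the most one-sided. Eno1 held 99.6% ± 0.0349 of the enolases, and Eno2, the enolase used as a neuron marker, stood at 7.34 ± 0.898 TPM on 31 to 39 counts per library. Uchl1 held 99.3% ± 0.0985 of the ubiquitin C-terminal hydrolases. Ckb (94.4% ± 0.162), Hk1 (92.4% ± 0.823) and Ldha (81.7% ± 1.28) led their families, as did the glucose transporter Slc2a1 at 240 ± 19.6 TPM. The neuronal glucose transporter Slc2a3 was at 9.44 ± 1.66 TPM. Phosphofructokinase was shared by Pfkp (253 ± 13.0 TPM), Pfkl (245 ± 25.9 TPM) and Pfkm (166 ± 7.43 TPM). Calm3 held 64.6% ± 1.94 of the calmodulins, 3 genes that encode the same protein. Bdnf held 84.7% ± 2.55 of the neurotrophins, and Ntrk2, its receptor, held 92.8% ± 0.485 of the Trk receptors at 153 ± 9.56 TPM.

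Cell type content was read from summed marker levels. The number of expressed members of any list stands beside all 13739 genes with a symbol, of which 11129 were expressed. The 11 pan-neuronal markers with a symbol were all expressed and summed to 4756, 5121, 5175 and 5129 TPM, led by Uchl1, Stmn2 (725 ± 14.4 TPM), which regulates growth cone microtubules, and Thy1 (673 ± 58.1 TPM). The nuclear neuron marker Rbfox3 was at 41.1 ± 5.51 TPM. The 12 astrocyte markers were all expressed as well and summed to 4427, 4613, 4330 and 4259 TPM. The sum of the astrocyte list over that of the neuron list was 0.931, 0.901, 0.837 and 0.830 in vehicle 1 to 4. These ratios compare 2 lists of transcripts and are not cell counts; with list medians in place of sums the mean ratio was 0.475.

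Glutamatergic identity was carried by Slc17a7, Nrgn (192 ± 6.88 TPM), a postsynaptic calmodulin-binding protein, Camk2a and the transcription factor gene Neurod6 (75.6 ± 7.22 TPM). Of 12 excitatory markers, 10 were expressed, and the neocortical factor Tbr1 was not. The list summed to 1005, 1033, 1090 and 1122 TPM. Of 10 GABAergic markers, 8 were expressed, with sums of 501, 550, 550 and 554 TPM, vehicle 1 being the lowest. Slc32a1, the vesicular GABA transporter, stood at 89.3, 99.3, 97.5 and 94.4 TPM. Dlx1 (17.6 ± 4.58 TPM) and Lhx6 (3.96 ± 1.66 TPM), factors of interneurons from the ganglionic eminences, were expressed. Markers of interneuron classes were uneven: Sst at 1506 ± 135 TPM and Cck at 712 ± 38.1 TPM were followed by Calb2 (104 ± 13.5 TPM), Crh (37.1 ± 4.33 TPM), Tac1 (28.7 ± 5.32 TPM), Vip (28.0 ± 8.73 TPM), Pvalb (27.7 ± 7.05 TPM), Npy (20.7 ± 5.97 TPM) and Reln (10.1 ± 1.24 TPM). Cck is also made by pyramidal cells.

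Astrocyte markers were led by the intermediate filament gene Gfap at 1243, 1230, 1222 and 1077 TPM. Aldoc (985 ± 46.2 TPM), S100b (897 ± 43.4 TPM) and Glul, encoding glutamine synthetase (509 ± 34.7 TPM), followed. Aqp4, the water channel of astrocyte endfeet, stood at 125 ± 7.83 TPM and Gja1, the gap junction protein connexin 43, at 103 ± 7.94 TPM. Aldh1l1, the lowest of the list, was at 11.9 ± 2.76 TPM. Genes shared by radial glia and immature astrocytes were also high, with Fabp7 at 1329, 1167, 1249 and 1089 TPM and Vim at 961, 879, 661 and 726 TPM. The stem cell genes Nes (8.52 ± 0.617 TPM) and Pax6 (3.48 ± 1.20 TPM) were low.

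The oligodendrocyte lineage was present mainly through its precursor markers. Olig1 stood at 361, 407, 349 and 320 TPM, Olig2 at 63.7 ± 2.17 TPM, Sox10 at 25.7 ± 3.63 TPM and Pdgfra, the receptor that defines precursors, at 21.6 ± 3.23 TPM. The precursor list summed to 468 to 557 TPM. Genes of myelin summed to 115 to 154 TPM over 8 members, of which 5 were expressed. Cnp stood at 76.1 ± 8.28 TPM, Mbp at 22.3 ± 2.22 TPM and Mog at 12.7 ± 1.94 TPM, and the late myelin gene Mobp was not expressed (0.543 ± 0.248 TPM).

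Microglial markers were low and differed between libraries. The 7 markers with a symbol summed to 58.3, 53.3, 120 and 57.6 TPM in vehicle 1 to 4. The complement genes C1qa (17.2, 7.85, 30.1 and 10.8 TPM), C1qb (13.5, 12.8, 26.1 and 11.4 TPM) and C1qc (9.36, 11.9, 26.8 and 7.25 TPM) and the adaptor gene Tyrobp (7.25, 5.03, 15.9 and 8.19 TPM) were each highest in vehicle 3. Vehicle 3 held the highest value of 4 of the 5 expressed markers, against 21.2% of all expressed genes. The lysosomal Cd68 did not follow this pattern, and the growth factor receptor gene Csf1r was at 0.435 to 1.68 TPM.

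**Figure D4:**
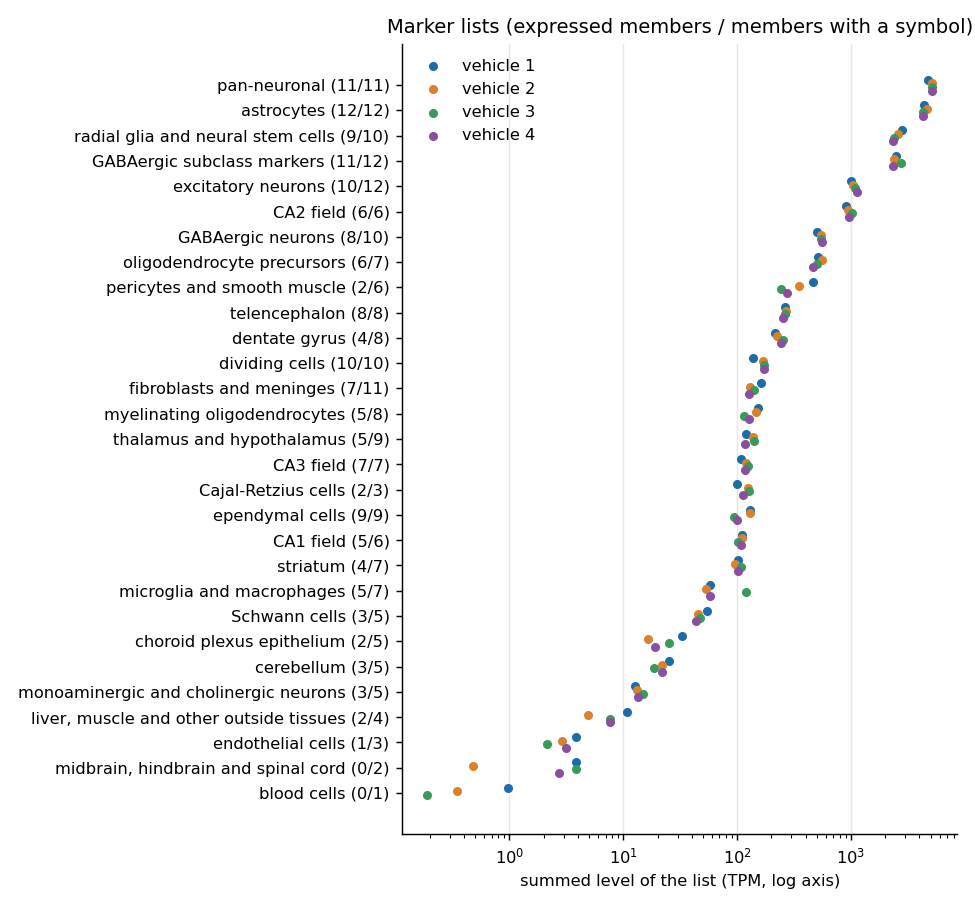
Summed level (TPM, log axis) of each cell type and brain region marker list in the 4 vehicle libraries, with the number of expressed members and of members with a symbol in brackets; a sum of 0 (blood cells, vehicle 4) is not drawn. The pan-neuronal and astrocyte lists lie highest, and vehicle 3 stands above the other libraries in the microglia list. The endothelial, hindbrain and blood lists lie below 4 TPM, over only 3 of 10, 2 of 11 and 1 of 10 listed genes.

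Other cell type lists had sums far below the pan-neuronal and astrocyte lists, over the members that carry a symbol. The endothelial list, in which 3 of 10 members carry a symbol, summed to 2.14 to 3.86 TPM, with Vwf at 0.285 ± 0.245 TPM. Of the pericyte and smooth muscle list, Tagln, an actin-binding protein also made by cultured astrocytes and other flat cells, stood at 452, 348, 236 and 269 TPM, while the defining markers Acta2 (2.07 ± 1.45 TPM), Pdgfrb (1.91 ± 0.968 TPM) and Des (0.388 ± 0.458 TPM) were near 0. Fibroblast and meningeal genes summed to 126 to 161 TPM, led by the proteoglycan gene Lum (41.9 ± 7.53 TPM), with the collagen gene Col1a1 at 4.97 ± 1.97 TPM. All 9 ependymal markers with a symbol were expressed, at sums of 130, 131, 94.2 and 99.5 TPM, led by the dynein light chain gene Dynlrb2 (24.1 ± 8.97 TPM). The choroid plexus gene Ttr was at 4.85 TPM in vehicle 1 and 0.618 to 0.704 TPM in the others. All 10 genes of dividing cells were expressed, at sums of 138, 169, 171 and 173 TPM, of which Pcna, which also acts in DNA repair, gave 77.4 ± 15.4 TPM and Mki67 3.72 ± 0.726 TPM. The Y-linked Eif2s3y (28.8 ± 2.36 TPM), Ddx3y (5.58 ± 0.527 TPM) and Kdm5d (3.85 ± 1.04 TPM) were expressed in all 4 libraries.

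Forebrain identity genes were present throughout. All 8 telencephalic transcription factor genes were expressed and summed to 264, 271, 266 and 254 TPM, led by Lhx2 (108 ± 5.21 TPM). The list of midbrain, hindbrain and spinal cord had 2 of 11 members with a symbol, En1 and En2, and neither was expressed. The other members, among them the Hox genes, were not analysed here. Markers listed for each field of the hippocampus were expressed. Expressed were 5 of 6 with a symbol for CA1, all 6 for CA2, all 7 for CA3 and 4 of 8 for dentate gyrus. The lists summed to 107 ± 4.12 TPM for CA1, 118 ± 7.31 TPM for CA3 and 233 ± 17.7 TPM for dentate gyrus. Lists of other regions reached 129 ± 12.5 TPM (thalamus and hypothalamus, which counts Calb2) and 102 ± 4.88 TPM (striatum). These sums therefore do not show that each field was present. Mpped1 (32.7 ± 2.18 TPM) and Wfs1 (27.9 ± 4.17 TPM) stand for CA1, Amigo2 (21.5 ± 5.02 TPM) and Rgs14 (9.57 ± 2.73 TPM) for CA2, and Bok (36.6 ± 4.98 TPM) and Grik4 for CA3. Pcp4, listed for CA2 and also made by other neurons, was far higher at 782 ± 43.5 TPM. Dentate gyrus markers were mixed: C1ql2 (121 ± 20.2 TPM) and Calb1 (72.5 ± 5.76 TPM) were high, while Prox1, the factor that specifies granule cells, stood at 1.01, 1.08, 1.52 and 0.819 TPM. Of striatal markers Ppp1r1b, encoding DARPP-32, stood at 78.0 ± 5.86 TPM, but the dopamine receptor genes Drd1 and Drd2 were not expressed.

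Neuropeptide precursors and granins formed an abundant group. Of 24 with a symbol 23 were expressed, against 11129 of all 13739 genes with a symbol. The list summed to 4880, 4912, 5247 and 4675 TPM. Sst, the precursor of the inhibitory peptide somatostatin, led at 1544, 1397, 1681 and 1401 TPM. Vgf, a granin-like precursor induced by activity and neurotrophins, followed at 1018, 1103, 1129 and 947 TPM, and every value of Sst was above every value of Vgf. Scg2 (718, 728, 694 and 735 TPM) and Cck (683, 706, 767 and 691 TPM) overlapped. The granins Chgb (240 ± 4.62 TPM) and Chga (215 ± 14.9 TPM), Adcyap1 (109 ± 13.5 TPM), the opioid-family precursors Pnoc (105 ± 15.9 TPM), Penk (51.4 ± 4.90 TPM) and Pdyn (36.9 ± 5.95 TPM), and Crh (37.1 ± 4.33 TPM) came next. The hypothalamic precursors Hcrt (2.33 ± 0.821 TPM), Pomc (2.50 ± 0.736 TPM) and Avp (2.50 ± 2.08 TPM) were the lowest.

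The promoters of these genes were searched for letters that are known as regulatory elements, because cyclic AMP and calcium signals act on many of them through the cyclic AMP response element. The window was the 250 bases before the start site in RefSeq (build GRCr8), and a promoter was found for 18 of the neuropeptide precursors and 14 of the immediate early genes. The full element TGACGTCA, which reads the same on both strands, was in the windows of 3 precursors (Vgf, Scg2 and Cartpt) and 2 immediate early genes (Ier2 and Dusp1). It was in 1.70% of all 27457 promoters of the same length and in 2.91% of the 11047 promoters matched to a gene with a symbol. The matched promoters are the closer background for these lists. The stretches around each are shown because they carry the element beside the level of the gene, with the element in capitals and 30 bases on each side, 5′ to 3′ on the strand of the gene.
Vgf: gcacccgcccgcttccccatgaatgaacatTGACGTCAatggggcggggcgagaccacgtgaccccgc
Scg2: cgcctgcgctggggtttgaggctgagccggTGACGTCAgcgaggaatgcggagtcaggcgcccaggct
Cartpt: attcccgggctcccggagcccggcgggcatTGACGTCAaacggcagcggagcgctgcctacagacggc
Ier2: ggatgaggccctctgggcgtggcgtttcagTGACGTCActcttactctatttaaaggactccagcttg
Dusp1: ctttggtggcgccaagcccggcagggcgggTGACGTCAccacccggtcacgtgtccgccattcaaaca

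The element starts 90 bases before the start site of Vgf (stretch at chr12:25277073-25277140, minus strand, GRCr8), 123 bases before that of Scg2 (chr9:88256952-88257019, minus strand) and 142 bases before that of Cartpt (chr2:32991340-32991407, minus strand). It starts 66 bases before the start site of Ier2 (chr19:40399277-40399344, plus strand) and 124 bases before that of Dusp1 (chr10:17184699-17184766, plus strand). The 5 genes spanned Vgf at 1049 ± 83.0 TPM, Scg2 at 719 ± 17.9 TPM, Ier2 at 43.4 ± 5.11 TPM, Dusp1 at 38.7 ± 4.67 TPM and Cartpt at 8.07 ± 1.62 TPM, so carrying the element went with no fixed level. A TATAAA on either strand was in 8 of the 18 precursor windows (44.4%) and 3 of the 14 immediate early gene windows (21.4%). It was in 13.1% of all promoters and in 6.44% of the matched promoters. A match is a description of the letters and shows neither binding nor use.

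Over all genes the same letters varied with level. Among 11047 genes whose symbol matched a promoter, the share with TGACGTCA was 1.49% of 1143 genes under 1 TPM, 2.45% of 3883 genes from 1 to 10 TPM, 3.18% of 4849 genes from 10 to 100 TPM and 4.69% of 1172 genes at 100 TPM or more. The GC box letters GGGCGG on either strand were in 42.6%, 54.7%, 62.5% and 64.6% of the same bands. The share was 57.9% over the 11047 matched genes together and 32.4% over all promoters. The median ratio of observed to expected CpG was 0.468, 0.691, 0.777 and 0.812. TATAAA was in 9.89%, 6.44%, 5.38% and 7.42%, with no steady order. The 2 elements and the CpG ratio share base composition, so these shares are not independent of each other. Within families the leading member's promoter had the higher GC content in 22 families and the lower in 19 of 42 families with both promoters, so no such difference was seen there.

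Immediate early genes, transcribed within minutes of synaptic activity, were expressed in the vehicle cultures. Of 19, 18 were expressed, against 11129 of all 13739 genes with a symbol. The sums were 672, 839, 864 and 898 TPM, with vehicle 1 the lowest. Nptx2, Junb (95.4, 128, 156 and 137 TPM) and Jun (97.6, 91.0, 85.8 and 86.3 TPM) were the highest. Npas4, a factor induced by calcium entry, stood at 13.0, 31.7, 29.96 and 36.3 TPM, and vehicle 1 lay below the other 3. Fos (43.1, 60.2, 61.1 and 69.6 TPM), Egr4 (22.2, 36.5, 42.3 and 46.7 TPM), Fosb (10.1, 19.1, 14.7 and 21.0 TPM), Arc (19.3, 25.8, 32.3 and 27.9 TPM) and Bdnf (49.7, 65.5, 79.0 and 72.8 TPM) were likewise lowest there. Jun and Homer1 (12.8, 7.11, 9.38 and 11.5 TPM) instead had their highest value in vehicle 1. In all, 12 of the 18 expressed genes (66.7%) had their lowest value in vehicle 1, against 23.5% of all expressed genes. The pan-neuronal sum and the sum of dividing cells were also lowest in vehicle 1, and Vim and Tagln were highest there. The part of these differences in the immediate early gene values was not tested.

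**Figure D5:**
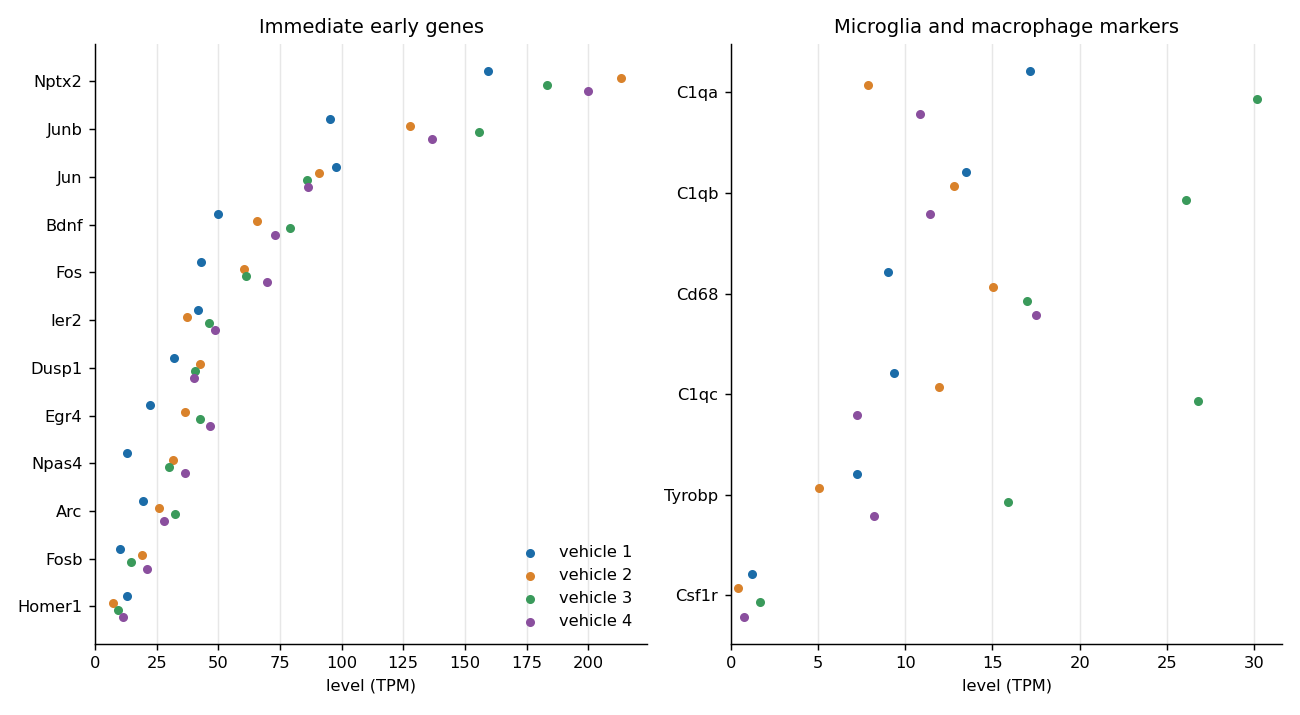
Level (TPM, axes from 0) of the immediate early genes (left) and of the microglia and macrophage markers (right) that the text names in the 4 vehicle libraries, 1 point per library. Vehicle 1 is lowest for Npas4, Fos, Egr4, Arc and Bdnf, and vehicle 3 is highest for C1qa, C1qb, C1qc and Tyrobp.

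The spread between the libraries was small for most genes. The excess coefficient of variation, which is the variation left after counting error is subtracted, had a median of 7.78% over the 6908 genes with a mean of at least 20 CPM. It exceeded 30% for 63 of them (0.912%). Without vehicle 1, 2, 3 or 4 the number was 64, 160, 118 or 132, and at a mean of at least 50 CPM it was 4. The number therefore depends on the setting. Leaving out a library changes both which libraries enter and how many values each gene has, and these were not tested apart. The largest value with a symbol was that of Ccn2, a secreted matrix protein of the YAP pathway, at 22.0, 11.3, 5.29 and 9.28 TPM on 30 to 123 counts. Tug1, a long noncoding RNA, stood at 3.99, 5.92, 5.98 and 11.5 TPM, and Rpph1, the RNA of ribonuclease P, at 117, 125, 133 and 263 TPM, both highest in vehicle 4. Npas4 and Grin2b were also among the 20 most variable genes. The others in that set were Csmd2, Zfp275, Glmn, Ampd3, Myef2, Otub2, Nprl2, Terf2, Prpf4b, Ydjc, Pnma2, Fhl2, Gspt2, Nacc2 and Ramac, with excess variation from 34.2% to 39.9%. Of these, Csmd2, Glmn, Myef2, Nprl2, Prpf4b, Ydjc, Pnma2, Fhl2, Nacc2 and Ramac were highest in vehicle 1. Vehicle 1 also held the highest value of 34.4% of all expressed genes, the largest share of any library. The genes of this set were chosen for their spread in the same libraries. The least variable of the 30 most abundant nuclear genes was Cfl1 at 1.73%.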

How the data were processed

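Polyadenylated RNA of 4 vehicle libraries was analysed. The authors deposited whole-number gene counts per library with exon coordinates and exonic lengths, in the layout of featureCounts, per the file headers. The submitters' processing notes name STAR, featureCounts, DESeq, DESeq2 and the build Rnor_6.0 without versions. The sources used here give neither the annotation release nor the strandedness. A further deposited file holds the authors' own test results: group means as a signal, log2 fold changes and p-values, per the file headers. Only its gene identifiers and symbols were read, and it pairs 13739 identifiers with symbols. Counts carrying a symbol made up 97.4% to 97.7% of each library.

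Counts were divided by exonic length and scaled to TPM in Python 3.11.15. TMM scaling and biological coefficients of variation came from edgeR 4.0.16 in R 4.3.3, and the common coefficient was 11.3%. Excess variation was estimated by moments from TMM-scaled counts of genes averaging 20 CPM or more, and the procedure was tested on simulated data. No pair of libraries was a duplicate: the chi-square of their counts was 2.77 to 4.11 times its degrees of freedom. No comparison between groups was tested: there is 1 group, and with 4 samples a two-sided exact sign-flip test cannot give a p below 0.125.

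The lists held 658 genes, of which 532 carried a symbol in the files; the other 126 were not analysed here. Some genes of the lists are not reported here by name. The members and lists were chosen with earlier results of these data known. Genes named are the 30 most abundant nuclear genes with a symbol, members of the lists with the leading and next ones always, the mitochondrial protein-coding genes and the 20 genes of largest excess variation. Of 570 genes eligible for naming, 43 share exon bases with another gene, 6 of them over at least 20% of their exons. Promoters are those of RefSeq on GRCr8, matched by gene identifier, and no coordinate of that build was joined to Rnor_6.0. Alternatives were other expression limits, raw counts, TPM over nuclear genes, RPKM with TMM-scaled libraries, list medians, RLE or no scaling, edgeR's tagwise variation, a pseudocount of 0.1 and each library left out; TPM without features under 200 bases was added after seeing the data.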

Additional observations from a re-analysis of the deposited data

Results flagged for a closer look

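In all, 387 values were checked for a library whose gap to its nearest neighbour took up more of the range of the 4 libraries than Dixon's critical value allows. This limit is passed by about 5% of independent groups by chance, and 23 values passed it. Some of the genes checked were named for their spread between these libraries, and the sums and shares hold genes also checked singly. The 5% rate therefore does not apply directly, and the values below are a description only.

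In vehicle 1 the low values were the summed pan-neuronal markers (4756 TPM, against 5121 to 5175 TPM in the others), the summed GABAergic markers (500.8 against 549.5 to 554 TPM), the summed genes of dividing cells (137.6 against 169.3 to 173 TPM) and the polyubiquitin gene Ubb (3500 against 3980 to 4013 TPM). The high values in vehicle 1 were Csmd2 (5.062 against 2.215 to 2.506 TPM), Kcnd3 (8.483 against 7.652 to 7.749 TPM) and Ttr (4.853 against 0.618 to 0.7043 TPM).

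Vehicle 2 had the highest total count (3679249, against 3175404 to 3259506).

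In vehicle 3 the summed microglia and macrophage markers (119.6 against 53.29 to 58.28 TPM), C1qb (26.07 against 11.4 to 13.46 TPM), Kcna6 (22.52 against 17.57 to 18.31 TPM), Mki67 (4.796 against 3.247 to 3.498 TPM) and Pcp4 (846.4 against 753.6 to 766.4 TPM) stood apart as high. The summed CA1 markers (101.2 against 108.5 to 109.9 TPM) and Slc12a2 (5.832 against 7.517 to 7.85 TPM) stood apart as low.

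In vehicle 4 ATP6 (33556 against 30704 to 31128 TPM), Rpph1 (263.4 against 117.4 to 133.3 TPM), Shank1 (53.76 against 41.92 to 43.54 TPM) and Gabra6 (0.1942 TPM against 0 in the other 3) were high. Gfap (1077 against 1222 to 1243 TPM), Lhx2 (100.7 against 110.1 to 111.5 TPM), the share of Cacna1a among calcium channel alpha-1 subunits (26.59% against 29.1% to 29.55%) and the share of Bdnf among neurotrophins (80.95% against 85.65% to 86.35%) were low.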

How the results depend on the processing

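No paired analysis was possible because only one group was analysed. The number of expressed genes was 10621 to 13516 under the 6 other limits and scalings and 11900 to 11977 with 1 library left out. The number of families with a leader over 50% was 60 to 63 under all alternatives, although the leader was another gene in 8 families when raw counts were used. The ratio of astrocyte to pan-neuronal sums, 0.875, was 0.475 with list medians and 0.856 to 0.89 with 1 library left out. The number of genes varying by over 30% was 4 with edgeR's tagwise estimate, which shrinks towards the trend, and 4 at a mean of at least 50 CPM, where fewer genes enter. It was 64 to 160 with 1 library left out; the cause was not tested. The median correlation of 0.976 was 0.971 with a pseudocount of 0.1 and 0.96 over all genes with a count. TPM over nuclear genes multiplied every nuclear level by 1.26 to 1.29 and left ratios as they were. Levels of genes with few counts, such as the GluN2 subunits, are limited by depth.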
